A study of Homo sapiens with 12 samples.

Results

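The genes described here are 10 components of the NODAL signalling pathway, of 18646 genes with a symbol on the array. They are the ligands NODAL and GDF3, the coreceptor CRIPTO (formerly TDGF1), the receptors ACVR1B and ACVR2B, the secreted antagonists LEFTY1, LEFTY2 and CER1, the nuclear partner FOXH1 and the target gene EOMES. A gene was taken in when the platform annotation, brought to current symbols by Entrez number, gave that symbol to a probe, and these 10 genes had 14 of the 41000 probes. NODAL and GDF3 are ligands of the TGF-beta family that signal through type I and type II activin receptors only when an EGF-CFC coreceptor such as CRIPTO is present. The receptors phosphorylate SMAD2 and SMAD3, which enter the nucleus with SMAD4 and reach DNA with partners such as FOXH1. LEFTY1 and LEFTY2 are targets of the pathway that block it in turn, and in human pluripotent cells the pathway helps to keep the undifferentiated state at low activity and drives mesendoderm, with EOMES among the first genes, at high activity.

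The cells were NTERA2 (NT2/D1), a human embryonal carcinoma line that is used as a model of pluripotent cells and differentiates under retinoic acid (RA). Cells with a short hairpin RNA against ZRF1 (shZRF1), whose gene symbol is DNAJC2, were set against cells with a random hairpin (shRandom), and both kinds carried a hairpin. At 0 h both were untreated, and at 3 h both had received 0.01 µM RA for 3 h, so no array measured the response to RA itself. The 12 arrays comprise 3 biological replicates at either time, hybridised once with the knockdown labelled with Cy5 (forward) and once with it labelled with Cy3 (swapped). The labels number the shZRF1 line differently on each replicate while all titles give the same name, so the samples were taken as 1 line. The sources used here do not say whether it is a clone or a pool.

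The values below are log2 ratios of shZRF1 over shRandom, with the sign of swapped arrays turned, so that a positive value means more RNA in the knockdown. The deposited table holds ratios and no signal intensities, so the level of a gene, its signal over background and the presence of the markers that define NT2/D1 cells could not be read from it. With 12 arrays, precision is limited by their number. The labels give the dye of each sample but not which dye is the numerator. Cy5 over Cy3, the usual form in limma, was taken as the likely direction, and with the other one every sign below would turn. In this direction DNAJC2, the target of the hairpin, was lower in the knockdown on 12 of 12 arrays, from -2.73 to -0.39, so it served to settle the direction and is no independent check of the labels. Its mean log2 ratio over both times was -0.83 ± 0.15 (moderated SE, n = 6; limma adjusted p = 0.015), and -0.53 without the wide arrays described next. This mean had an adjusted p under 0.05 in 12 of 17 alternative fits. At 0 h the ratio of DNAJC2 was -0.70 (limma adjusted p = 0.137), and at 3 h it was -0.96 (limma adjusted p = 0.045). Before turning, the 2 arrays of a dye pair correlated at -0.11 to 0.19 over all probes, while arrays of the same orientation correlated at 0.38 to 0.68. Ratios that followed the knockdown alone would give negative correlations within a dye pair before turning. On 3 arrays the ratios were spread more widely than on the others: the span between percentiles 1 and 99 was over 1.2 times that of the median array. These wide arrays were the swapped array of 0 h replicate 2, the forward array of 3 h replicate 1 and the swapped array of 3 h replicate 3. In this order their spans were 1.923, 3.446 and 1.245 times that of the median array. Their largest absolute log2 ratios were 15.96, 29.54 and 7.106, against 4.886 or less on the other arrays. A gene was said to pass when its adjusted p (limma, Benjamini-Hochberg over all features) was under 0.05. The main fit averaged the 2 arrays of a replicate. Fits without the wide arrays took the other arrays singly, with a coefficient for the dye. With a correlation of 0.056 between arrays of a replicate, these fits counted dye pairs of the same RNA extracts almost as separate replicates. Their adjusted p can therefore be too small, and can differ for reasons beside the wide arrays. In bulk RNA a change in the share of cells that express a gene and a change of RNA per cell cannot be told apart.

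Over both times GDF3, CRIPTO and EOMES rose in the knockdown and CER1 fell, while NODAL, LEFTY1, LEFTY2, FOXH1, ACVR1B and ACVR2B did not pass. GDF3 had the largest ratio at 1.41-fold, followed by CRIPTO at 1.27-fold and EOMES at 1.26-fold, and CER1 stood at 0.907 of the control level. This order rests on the wide arrays, without which the mean log2 ratio was 0.35 for EOMES, 0.33 for GDF3 and 0.25 for CRIPTO. For the mean of both times 4 of 10 members passed, 3 higher and 1 lower, where 19% of all named genes passed (9.54% higher and 9.46% lower). At 3 h 4 of 10 passed, 3 higher and 1 lower, against 9.8% of all named genes (5.42% higher and 4.38% lower). At 0 h only EOMES and CER1 passed, 1 higher and 1 lower of 10, against 4.79% of all named genes (2.05% higher and 2.74% lower). The members were chosen with earlier results of these data known, so their counts beside these shares are a description and no test. The ratio had the same sign on all 12 arrays for 4 of 10 members, the 4 that passed for the mean, and for 9.14% of all named genes. The median log2 ratio of the 10 members over both times was 0.02, against 0.00 over all named genes, and the median absolute ratio was 0.05 against 0.04. Without the wide arrays 4 members passed at 0 h, at 3 h and for the mean, against 14.9%, 15.5% and 26.7% of named genes.

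**Figure D1:**
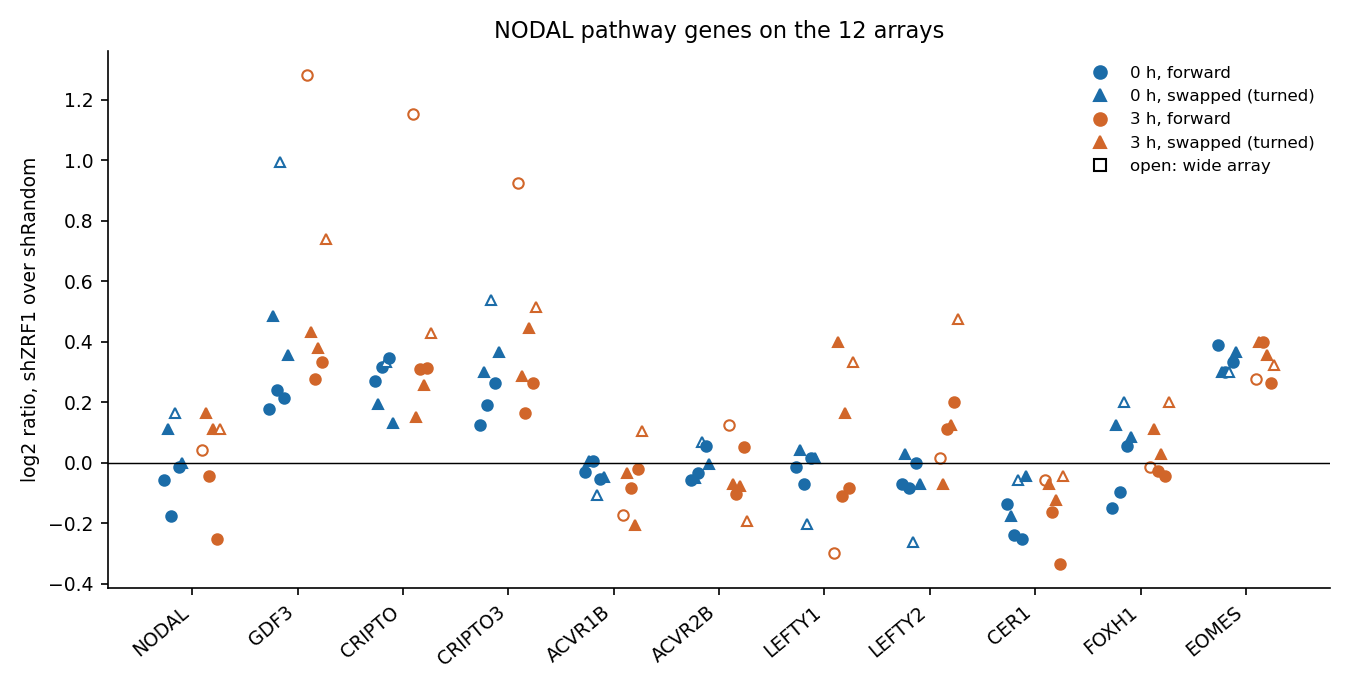
Log2 ratio of shZRF1 over shRandom (y axis) for the 10 members and CRIPTO3 (x axis) on each of the 12 arrays, blue for 0 h and orange for 3 h, circles for forward arrays and triangles for swapped arrays after turning, open symbols for the 3 wide arrays. GDF3, CRIPTO, CRIPTO3 and EOMES lie above 0 on 12 of 12 arrays and CER1 lies below 0 on 12 of 12, while the other 6 members have arrays on both sides of 0.

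The promoters of the members that passed are shown because these are the genes the results turn on, and the capitals mark every match to a motif that was searched for on both strands. The motifs were AATNNACA, a core read by FOXH1, CAGAC, an element read by SMAD proteins, and AGNTCA. The last is a loose pattern that includes half-sites of the retinoic acid receptor, so a match need not be a half-site. Sequences are from RefSeq, build GRCh38.p14, written 5′ to 3′ on the strand of the gene, with 250 bases before and 50 after an annotated transcript start, and 7 of the 10 members had an entry in the table used. CRIPTO has 2 annotated starts there, and the first is shown.
GDF3 promoter, chr12:7695726-7696025, - strand: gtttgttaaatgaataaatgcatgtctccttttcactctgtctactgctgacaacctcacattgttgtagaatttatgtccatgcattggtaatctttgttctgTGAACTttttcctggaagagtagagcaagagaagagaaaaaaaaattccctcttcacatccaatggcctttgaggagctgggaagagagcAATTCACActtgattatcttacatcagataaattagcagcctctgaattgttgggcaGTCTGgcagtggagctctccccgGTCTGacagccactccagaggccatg
CRIPTO promoter, chr3:46574285-46574584, + strand: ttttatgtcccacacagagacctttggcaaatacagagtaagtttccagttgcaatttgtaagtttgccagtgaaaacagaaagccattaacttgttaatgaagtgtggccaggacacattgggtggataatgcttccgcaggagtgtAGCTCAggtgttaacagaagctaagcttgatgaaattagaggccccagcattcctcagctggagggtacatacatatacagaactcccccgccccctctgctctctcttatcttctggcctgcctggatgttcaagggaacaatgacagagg
EOMES promoter, chr3:27722274-27722573, - strand: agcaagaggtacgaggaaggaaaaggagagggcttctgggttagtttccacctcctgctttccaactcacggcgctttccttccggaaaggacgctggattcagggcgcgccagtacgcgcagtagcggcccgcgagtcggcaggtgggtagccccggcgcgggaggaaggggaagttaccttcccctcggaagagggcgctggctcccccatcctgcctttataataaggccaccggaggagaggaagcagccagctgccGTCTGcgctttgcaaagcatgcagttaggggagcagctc
CER1 promoter, chr9:14722684-14722983, - strand: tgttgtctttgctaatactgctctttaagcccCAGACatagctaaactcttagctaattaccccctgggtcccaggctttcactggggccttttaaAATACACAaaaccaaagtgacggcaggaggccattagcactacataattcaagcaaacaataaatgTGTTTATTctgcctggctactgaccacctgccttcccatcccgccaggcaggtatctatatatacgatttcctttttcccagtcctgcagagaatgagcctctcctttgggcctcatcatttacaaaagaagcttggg
The FOXH1 core occurred in 2 places in the CER1 window, where its matches are AATACACA and TGTTTATT (the other strand), and in 1 place in the GDF3 window, AATTCACA. It did not occur in the windows of CRIPTO and EOMES, and 11% of the 35114 promoters of this length held it. CAGAC or its reverse GTCTG occurred at 2 places in GDF3, at 1 in CER1 and at 1 in EOMES, and 45.3% of promoters held it. AGNTCA occurred in 1 place in GDF3 and in 1 in the CRIPTO window shown, where it reads AGCTCA. The second CRIPTO window, not shown, held AGNTCA in 2 places, against 39.2% of promoters. No matches overlapped within a window shown. In the NODAL window, which is not shown, CAGAC and AGNTCA each occurred in 1 place and the FOXH1 core in 0. These matches describe letters only, and no binding was measured.

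Among the ligands, NODAL is the founding member of the pathway and the main activator of mesendoderm. Its replicate ratios were 0.03, -0.01 and -0.01 at 0 h and 0.10, 0.03 and -0.07 at 3 h. These values lie on both sides of 0 at both times. The mean over both times was 0.01 ± 0.02 (moderated SE, n = 6; limma adjusted p = 0.774), with a 95% interval from -0.05 to 0.07. NODAL was negative on 5 of 6 forward arrays, with a mean of -0.08, and at or above 0 on the turned swapped arrays, with a mean of 0.11, so its sign followed the dye.

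GDF3 is a ligand of stem cells that can signal like NODAL and has also been described as an inhibitor of BMPs. Its ratios were 0.33, 0.62 and 0.29 in the 0 h replicates and 0.86, 0.33 and 0.54 in the 3 h replicates. All 6 replicates and 12 of 12 arrays were positive, and the highest values came from replicates with a wide array. At 0 h the ratio was 0.41 ± 0.11 (moderated SE, n = 3; limma adjusted p = 0.0905) and did not pass. At 3 h GDF3 rose by 0.57 ± 0.11 (adjusted p = 0.0294), and for the mean of both times it rose by 0.49 ± 0.07 (adjusted p = 0.00879). The 3 wide arrays gave 0.99, 1.28 and 0.74, against 0.18 to 0.49 on the other 9. Without them the mean was 0.33, and the ratio at 0 h passed (0.31, adjusted p = 8.88e-05). That fit took single arrays and counted dye pairs almost as separate replicates. At 3 h the value without the wide arrays was 0.36. On forward arrays alone the mean of both times was 0.42 and did not pass (adjusted p = 0.0784). The 3 h call was lost when 3 h was fitted alone (adjusted p = 0.145) and on forward arrays alone (adjusted p = 0.0969). It was also lost on leaving out any of 4 replicates, replicates 1 and 3 of 0 h and 2 and 3 of 3 h (adjusted p = 0.0591 to 0.0681). With the replicate number as a block neither the 3 h ratio nor the mean passed. GDF3 is 1 of a group of stem cell genes that lie together on chromosome 12. Of the 5 measured genes on each side of it, DPPA3, a maternal factor of the germ line and early embryo, fell by 0.30 and CD163 and CLEC4C rose by 0.06 and 0.08, and NANOG stood at 0.02. The median of the 10 neighbours was 0.01, and 19% of all named genes passed for the mean.

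CRIPTO is the membrane-bound coreceptor that lets NODAL and GDF3 engage the activin receptors, and it is a marker of undifferentiated embryonal carcinoma cells. Its replicate ratios were 0.23, 0.32 and 0.24 at 0 h and 0.65, 0.28 and 0.37 at 3 h. All 6 were positive, and 3 h replicate 1 stood above the rest. At 0 h the ratio was 0.26 ± 0.07 (moderated SE, n = 3; limma adjusted p = 0.0873) and did not pass. At 3 h CRIPTO rose by 0.43 ± 0.07 (adjusted p = 0.0206), and for the mean it rose by 0.35 ± 0.05 (adjusted p = 0.00653). The forward array of 3 h replicate 1, which is wide, read 1.15, and the other 11 arrays read from 0.13 to 0.43. Leaving out the wide arrays gave 0.24 for 0 h, which passed (adjusted p = 0.000199), 0.26 for 3 h and 0.25 for the mean. That fit took the arrays singly and so counted dye pairs almost as separate replicates. Its 3 h call was lost in the same settings as that of GDF3, with 3 h alone (adjusted p = 0.142), with forward arrays (adjusted p = 0.0845) and on leaving out any of the same 4 replicates (adjusted p = 0.0527 to 0.0557). A block of replicate numbers ended the 3 h call too. The 2 probes of CRIPTO gave means of 0.38 and 0.32 over both times. Of the 10 measured genes next to CRIPTO on chromosome 3, 0 passed in limma, where 19% of all named genes passed. Their ratios went from -0.09 to 0.13.

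CRIPTO3 is a near-identical copy of CRIPTO on the X chromosome, and a probe for either may also bind RNA of the other, so their values cannot be told apart. Its single probe read 0.21, 0.36 and 0.32 in the 0 h replicates and 0.61, 0.30 and 0.39 in the 3 h replicates. All were positive, as were 12 of 12 arrays. CRIPTO3 rose by 0.36 ± 0.04 for the mean of both times (moderated SE, n = 6; limma adjusted p = 0.00402). CFC1, the other coreceptor of the family on the array, had a mean ratio of 0.02 (adjusted p = 0.704).

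**Figure D2:**
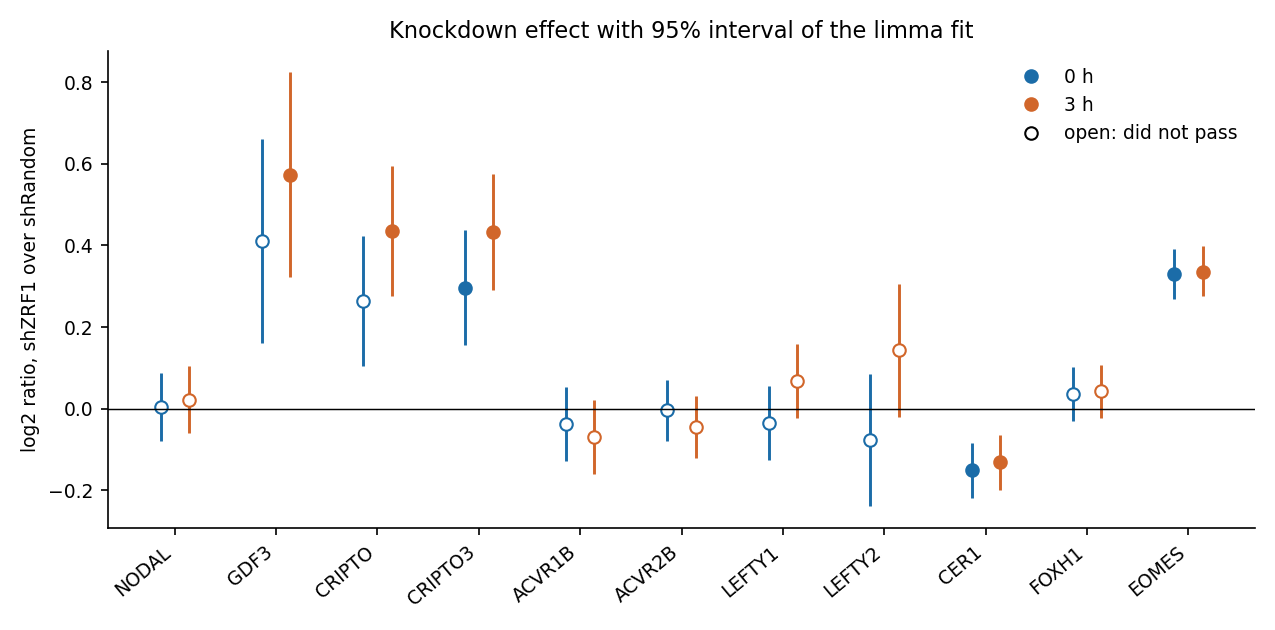
Log2 ratio of shZRF1 over shRandom at 0 h (blue) and at 3 h (orange) for the 10 members and CRIPTO3, with vertical lines for the 95% interval of the limma fit (n = 3 replicates per time, spread shared by both times) and filled points for genes that passed. EOMES has the narrowest intervals above 0, and the intervals of NODAL, FOXH1, the receptors and the LEFTY genes include 0 at both times.

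Among the receptors, ACVR1B (ALK4) is the type I receptor that phosphorylates SMAD2, and ACVR2B is a type II receptor that binds the ligand. The replicate ratios of ACVR1B were -0.01, -0.05 and -0.05 at 0 h and -0.10, -0.14 and 0.04 at 3 h. Those of ACVR2B were -0.05, 0.02 and 0.03 at 0 h and 0.03, -0.09 and -0.07 at 3 h. Both genes have replicates on either side of 0. The means over both times were -0.05 ± 0.03 for ACVR1B (moderated SE, n = 6; limma adjusted p = 0.245) and -0.02 ± 0.02 for ACVR2B (adjusted p = 0.540), with 95% intervals from -0.12 to 0.01 and from -0.08 to 0.03. The 3 probes of ACVR2B disagreed: averaged over the 6 forward arrays they gave -0.15, -0.15 and 0.32, and over the turned swapped arrays 0.08, 0.01 and -0.26. All 3 probes changed sign with the orientation, and 1 of them in the opposite sense. In a fit of single probes, 1 of the 3 fell at 3 h, by 0.14 (adjusted p = 0.0411), and the other two stood at -0.08 and 0.09 there. Both probes of ACVR1B also changed sign from forward to turned swapped arrays, from -0.14 to 0.07 and from 0.02 to -0.16.

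LEFTY1 and LEFTY2 are neighbouring genes on chromosome 1 that encode close relatives, both of which bind NODAL or its coreceptor and block the signal. The ratios of LEFTY1 were 0.01, -0.14 and 0.01 at 0 h and 0.05, 0.03 and 0.12 at 3 h. Those of LEFTY2 were -0.02, -0.17 and -0.04 at 0 h and -0.03, 0.12 and 0.34 at 3 h. LEFTY2 was below 0 in all 0 h replicates and above 0 in 2 of 3 at 3 h, and the times overlap. Neither gene passed at either time, with limma adjusted p from 0.242 to 0.689. The knockdown effect at 3 h minus that at 0 h was 0.22 ± 0.10 for LEFTY2 (adjusted p = 0.717) with a 95% interval from -0.01 to 0.45, and 0.10 ± 0.05 for LEFTY1 (adjusted p = 0.717). Without 3 h replicate 3, which holds a wide array, the difference of LEFTY2 was 0.12. LEFTY1 had a mean of -0.09 on forward and of 0.13 on swapped arrays.

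CER1 (Cerberus) is a secreted antagonist that binds NODAL and BMPs, and it is a target of the pathway in anterior endoderm. It was lower in all 6 replicates, with ratios of -0.16, -0.15 and -0.15 at 0 h and of -0.06, -0.14 and -0.19 at 3 h. The groups overlap, and the 0 h replicates had the smaller SD, 0.0056 against 0.0631. CER1 fell by 0.15 ± 0.03 at 0 h (moderated SE, n = 3; limma adjusted p = 0.043), by 0.13 ± 0.03 at 3 h (adjusted p = 0.0418) and by 0.14 ± 0.02 for the mean of both times (adjusted p = 0.00751). It was negative on 12 of 12 arrays, from -0.33 to -0.04, as were 4.61% of all named genes, with means of -0.20 on forward and -0.09 on swapped arrays. The call at 0 h was lost on either orientation alone, with single probes and on the omission of any replicate but 3 h replicate 1 (adjusted p = 0.0506 to 0.223). The call at 3 h was lost on either orientation alone, with 3 h fitted alone and on the omission of any replicate but 3 h replicate 1 (adjusted p = 0.080 to 0.207). Both calls were also lost with the replicate number as a block.

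FOXH1 is the forkhead factor that brings SMAD2 complexes to NODAL target genes. Its ratios were -0.01, 0.05 and 0.07 at 0 h and 0.05, 0.00 and 0.08 at 3 h. These are within 0.1 of 0 in every replicate. The mean over both times was 0.04 ± 0.02 (moderated SE, n = 6; limma adjusted p = 0.237), with a 95% interval from -0.01 to 0.09.

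EOMES is a T-box factor that directs mesendoderm and is also active in trophoblast. Its ratios were 0.34, 0.30 and 0.35 in the 0 h replicates and 0.34, 0.38 and 0.29 in the 3 h replicates. All replicates lay close together, and the groups overlap. EOMES rose by 0.33 ± 0.03 at 0 h (moderated SE, n = 3; limma adjusted p = 0.00641) and by 0.34 ± 0.03 at 3 h (adjusted p = 0.00602). For the mean of both times it rose by 0.33 ± 0.02 (adjusted p = 0.000764). It was positive on 12 of 12 arrays, from 0.26 to 0.40, as were 4.54% of all named genes. The wide arrays read 0.30, 0.28 and 0.32 and did not stand out, and forward and swapped arrays averaged 0.33 and 0.34. Without the wide arrays the mean was 0.35. The call at 0 h ended without any single 0 h replicate (adjusted p = 0.0646 to 0.0712), and the call at 3 h ended without 3 h replicate 2 (adjusted p = 0.0549) and with 3 h fitted alone (adjusted p = 0.125). Both calls also ended with the replicate number as a block. Of the 10 measured genes next to EOMES on chromosome 3, CMC1, AZI2 and RBMS3 rose and LRRC3B fell. The median of these 10 was -0.02, and 19% of all named genes passed. Among 9 measured trophoblast markers HAND1 (0.33) and TFAP2A (0.19) rose and GATA3 (-0.08) fell, where 19% of all named genes passed, and their part in the EOMES result was not tested.

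**Figure D3:**
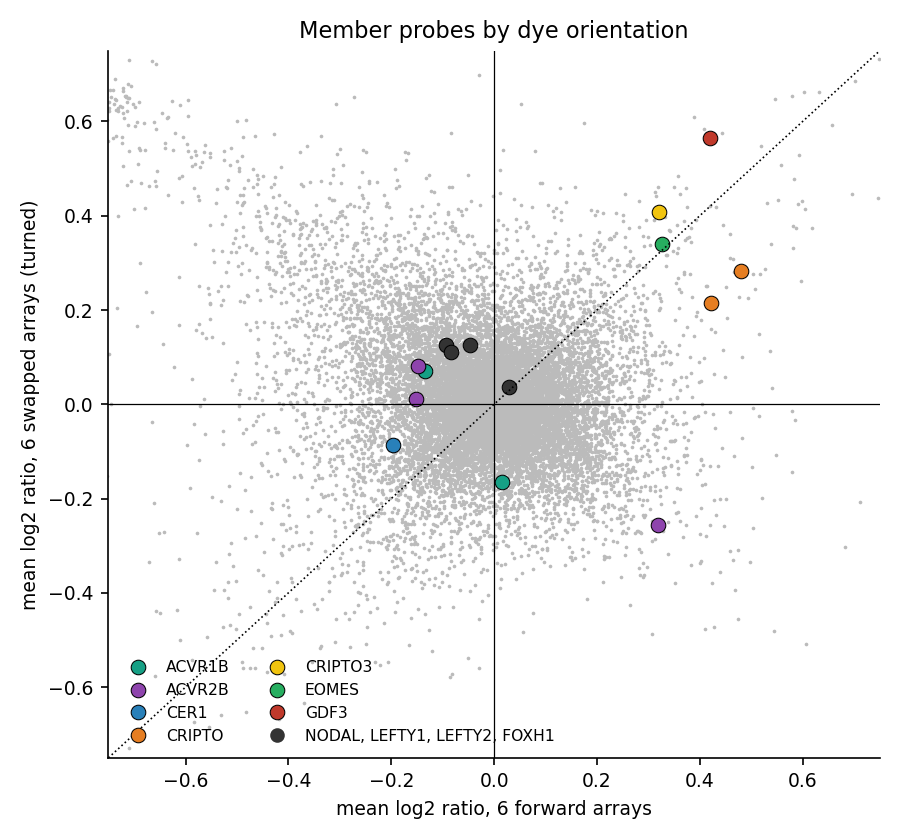
Mean log2 ratio over the 6 forward arrays (x axis) against the mean over the 6 swapped arrays after turning (y axis), 1 coloured point per probe of a member or of CRIPTO3 and 1 grey point per named gene, with 73 of 18646 genes outside the plotted range. Probes of GDF3, CRIPTO, CRIPTO3 and EOMES lie in the upper right and CER1 in the lower left, where both orientations give the same sign. The probes of NODAL, LEFTY1, FOXH1, ACVR1B and ACVR2B lie in quadrants where the orientations disagree.

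Averages of forward and of swapped arrays had opposite signs for 4 of 10 members (40%) and for 54% of all named genes. Those members were NODAL, LEFTY1, FOXH1 and ACVR2B, while the orientations gave the same sign for LEFTY2 (0.03 and 0.04) and ACVR1B (-0.06 and -0.05), which did not pass either. For ACVR1B this held only for the average of its probes, since each probe changed sign with the orientation, in opposite senses. On swapped arrays alone 6 of 10 members and 6307 of 18646 named genes passed for the mean of both times, and on forward arrays alone 3 of 10 members and 3741 named genes. The effect at 3 h minus the effect at 0 h passed for 0 of 10 members in limma, with 0 at an unadjusted p under 0.05, and for 0% of named genes. The members' differences went from -0.04 to 0.22, with a median of 0.02 against 0.01 over all named genes. For EOMES the difference was 0.01 ± 0.04, with a 95% interval from -0.08 to 0.09. For CRIPTO it was 0.17 ± 0.09 (limma adjusted p = 0.717) and for GDF3 0.16 ± 0.15 (adjusted p = 0.751), and without the wide arrays it was 0.02 for CRIPTO.

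The wider pathway was read from lists of ligands, coreceptors, receptors, antagonists, processing factors, SMADs and their partners, intracellular inhibitors and target genes, which name 60 genes beside the members, 56 of them measured. For the mean of both times 8 of these 56 rose and 7 fell, or 26.8%, against 19% of all named genes, and their median was 0.01 against 0.00. The 8 include CRIPTO3, whose value cannot be told apart from that of the member CRIPTO. Without the wide arrays 9 rose and 10 fell, where 26.7% of all named genes passed. These lists too were chosen with earlier results of these data known. Among 10 ligands GDF3 and GDF11 (0.11) rose and INHBA (-0.24), the subunit of activin A, fell, and INHBA was negative on 12 of 12 arrays. Of 5 receptors 0 passed in limma, also without the wide arrays, and ACVR2A (0.04) and ACVR1B (-0.05) had the smallest p. Among 6 secreted antagonists FST (-0.38), follistatin, which traps activin, fell together with CER1, and 0 rose. FST read -0.35 at 0 h and -0.41 at 3 h and passed at both (limma adjusted p = 0.0345 and 0.0195), and it was -0.28 without the wide arrays.

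Among 5 measured genes of ligand processing and secretion 3 rose and 0 fell. Beside each count in this paragraph, 19% of all named genes passed (9.54% higher and 9.46% lower). PCSK6 (0.18) and FURIN (0.13), convertases that cleave the NODAL precursor, and NCLN (0.10), a part of the Nicalin complex, passed, and PCSK6 was positive on 12 of 12 arrays. FURIN was positive on 6 of 12, from -0.29 to 0.51. Among 10 SMADs and nuclear partners ZFYVE9 (-0.18), an anchor of SMAD2 at endosomes, and SMAD3 (-0.10) fell and GTF2I (0.15, and 0.09 without the wide arrays) rose, while SMAD2 (0.01) and SMAD4 (0.02) did not pass. Of 11 intracellular inhibitors 1 rose, SMURF1 (0.14), a ubiquitin ligase of the pathway. SMAD7 (0.04) and SKIL (-0.02), inhibitors that the pathway itself induces, did not pass.

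Among 16 measured target genes of mesendoderm 2 rose and 3 fell, where 19% of all named genes passed, and the median of the list was 0.00. EOMES and LHX1 (0.16), a LIM homeobox factor of the organizer, rose. CXCR4 (-0.60), a chemokine receptor of definitive endoderm, OTX2 (-0.19), a head homeobox factor, and WNT3 (-0.16), a ligand that starts the primitive streak, fell. CXCR4 was -0.40 without the wide arrays. MIXL1 (0.04), GSC (-0.07), TBXT (-0.01), FOXA2 (0.01), SOX17 (-0.05), GATA4 (-0.02) and GATA6 (-0.06) did not pass, with limma adjusted p from 0.0693 to 0.872. Without the wide arrays 3 target genes rose and 4 fell, where 26.7% of all named genes passed. WNT3 and the genes outside the members that did not pass, ACVR2A apart, were chosen after their values were seen.

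**Figure D4:**
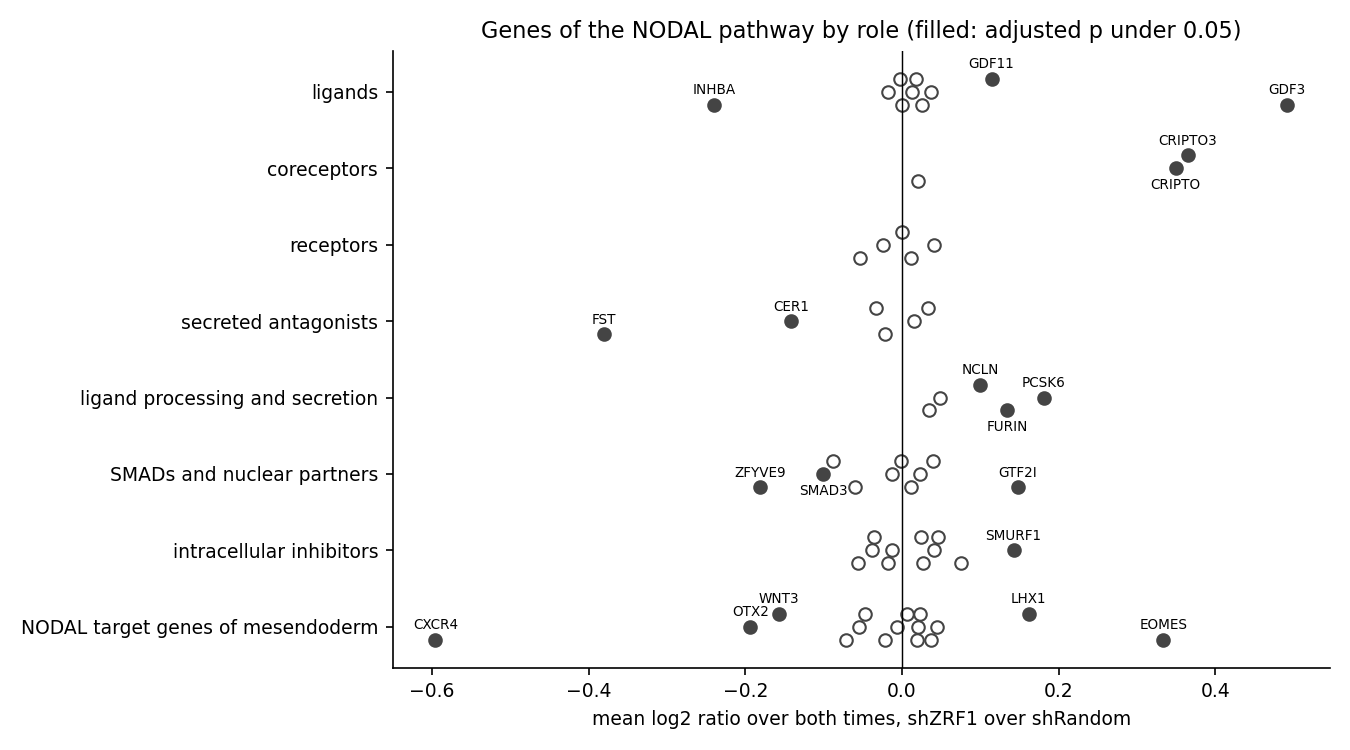
Mean log2 ratio over both times of shZRF1 over shRandom (x axis) for the measured genes of each role in the pathway (y axis), with filled and named points for genes that passed. Ligands, SMADs and target genes have genes on both sides of 0, the coreceptors and the processing genes that passed lie to the right, and the antagonists that passed lie to the left.

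The BMP arm, which uses other SMADs, and TGF-beta itself stand beside NODAL in this family. Of 21 measured BMP genes 2 rose, SMAD9 (0.20) and NOG (0.11), and 2 fell, BMP7 (-0.22) and GREM1 (-0.21), where 19% of all named genes passed. Without the wide arrays 4 rose and 3 fell, where 26.7% of all named genes passed. Among the 5 TGF-beta ligands and receptors TGFB2 (-0.19) fell. Of 10 pluripotency factors 0 rose and PRDM14 (-0.18) and SALL4 (-0.17) fell, while POU5F1 (-0.02 ± 0.10), SOX2 (-0.04 ± 0.02) and, among the targets, NANOG (0.02 ± 0.02) did not pass. In marker lists of other cell types 3 of 10 fibroblast and 3 of 10 neural progenitor markers passed, beside the same 19%, and the list medians were 0.03 and -0.03. Among the fibroblast markers THY1 (0.27) and LUM (0.24) rose and COL1A1 (-0.25) fell, and among the neural progenitor markers ZIC1 (0.33) and PAX6 (0.18) rose and SOX1 (-0.07, and -0.04 without the wide arrays) fell. Their part in the results on the NODAL genes was not tested.

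Genes whose 6 replicate values lay closest to those of GDF3, the member with the largest mean ratio when the wide arrays are included, were GPM6B, SNHG15, PPFIBP2, DOK5 and SULF1. Their root mean square differences from GDF3 over the 6 replicates were 0.04 to 0.09 on the log2 scale, and their mean ratios were 0.48 to 0.53. The 6 values share arrays and dyes, so the likeness is a description only.

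**Figure D5:**
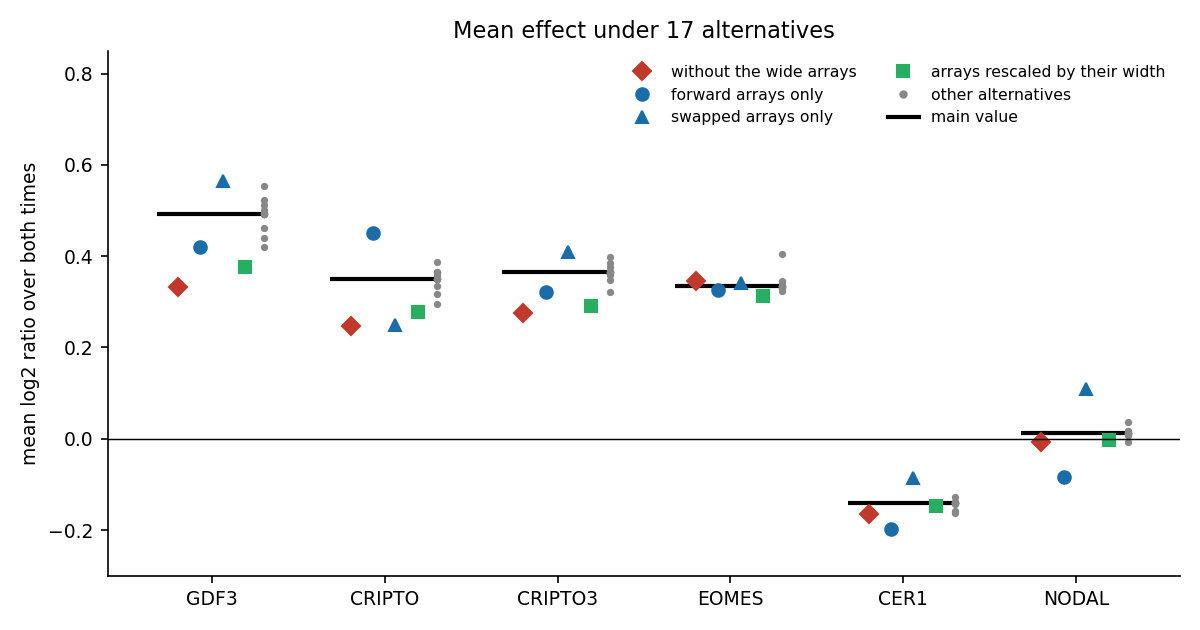
Mean log2 ratio over both times (y axis) of the 4 members that passed, CRIPTO3 and NODAL (x axis) as reported (black line) and under 17 alternatives (symbols). EOMES stays between 0.31 and 0.41 and CER1 between -0.20 and -0.09, the values of GDF3 and CRIPTO fall to 0.33 and 0.25 without the wide arrays, and NODAL goes from -0.08 on forward to 0.11 on swapped arrays.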

How the data were processed

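RNA of shZRF1 and shRandom cells at 0 h and 3 h of RA was measured on 12 Agilent 2-colour arrays. The authors deposited 1 score per probe and array, whose unit no label gives. Since 0 values fell inside -1 to 1, the score was read as a signed fold ratio of the channels, a ratio under 1 being the negative inverse. The submitters' processing notes name limma, without a version, and the sources used here do not describe background correction or normalization. Median log2 ratios lay within 0.0144 of 0 and the interquartile range was 0.154 on all arrays. Dyes come from the labels, and Cy5 over Cy3 is the likely direction, from limma's usual form and DNAJC2.

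Ratios were converted to log2 and swapped arrays turned. Of 41078 features, 78 controls were left out. Of 41000 probes 29341 had a single symbol (18646 genes, whose probes were averaged), 33 had several and 11626 had none, and the latter kinds were tested on their own, 30305 features in all. Forward and turned swapped arrays of a replicate were averaged, since they are the same 2 RNA extracts, and gave 6 values per gene. Limma 3.58.1 (lmFit, eBayes) in R 4.3.3 fitted a coefficient per time, with 4 residual degrees of freedom and a spread shared by both times, and p was adjusted by Benjamini-Hochberg over all features. The labels call the replicates biological and place them on different days, without saying which. The fit was run on simulated data with independent noise, without dye effects or wide arrays, so that run is no check of their part. Deviations of same-numbered replicates from their time means correlated at 0.0217, 0.0043 and -0.299. These values cannot exclude a pairing, and the number was not used as a block.

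The members and lists were chosen with earlier results of these data known. Named were DNAJC2, all members, up to 4 passing genes per list with the largest mean ratio (or the 2 with the smallest p), and the 5 genes most like the member with the largest ratio. Alternatives changed the dye orientation, the wide arrays, normalization, the block, the fit per time, the probes, the moderation and each replicate, and a fit of named genes only was added after seeing the data. The alternative without the wide arrays fitted single arrays, with a dye coefficient and a correlation of 0.056 between arrays of a replicate.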

Additional observations from a re-analysis of the deposited data

Results flagged for a closer look

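On 3 occasions an array stood apart from the other 5 arrays of its time by a gap above Dixon's 95% critical value, in 24 groups of 6 arrays, where chance gives about 1 in 20 groups. All 3 were wide arrays. CRIPTO read 1.15 on the forward array of 3 h replicate 1, and the nearest array of that time read 0.43. DNAJC2 read -2.73 on the same array, against -0.97 on the nearest, and -1.41 on the swapped array of 0 h replicate 2, against -0.61. EOMES, GDF3, CER1 and the other members had no such array. The part of these arrays in the results is given by the values without them.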

How the results depend on the processing

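EOMES and CRIPTO passed for the mean of both times in all 17 alternatives, CER1 in 16 and GDF3 in 15, and these 4 genes kept their sign in the 18 alternatives at each single time. The number of members passing at 0 h, 2 as reported, was 1 on forward arrays alone or with single probes, and 4 without the wide arrays, with rescaled arrays, with quantile normalization or with 0 h fitted alone. At 3 h, 4 as reported, it was 1 on forward arrays alone and 0 with 3 h fitted alone (4 at an unadjusted p under 0.05). On leaving out 1 replicate it went from 0 to 4 at 0 h, from 0 to 4 at 3 h and from 4 to 5 for the mean. The effect at 3 h minus 0 h passed for 0 members in limma under every alternative run.

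Among all named genes, 893 passed at 0 h, and 593 on forward arrays, 3832 on swapped arrays, 2032 with single arrays and a dye coefficient, 2775 without the wide arrays, 2196 with rescaled arrays and 2402 with quantile normalization. At 3 h 1827 passed, and 877 on forward arrays, 3217 with single arrays, 2882 without the wide arrays, 2919 rescaled, 2948 with quantile normalization and 0 with 3 h alone (4101 unadjusted). For the mean 3541 passed, and 6307 on swapped arrays. On leaving out 1 replicate the counts were 0 to 1743 at 0 h, 0 to 935 at 3 h and 1624 to 3608 for the mean. With only named genes adjusted, 1271, 2350 and 4007 passed, an alternative chosen after seeing the data. The fit without the wide arrays also took arrays singly, with a dye coefficient, and counted dye pairs almost as separate replicates. The causes were not tested.

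The labels do not say whether samples of the same replicate number at the 2 times belong together. With the replicate block the members passing were 0 at 0 h, 0 at 3 h and 2 for the mean (EOMES and CRIPTO), with 4 at an unadjusted p under 0.05 each time. The genes passing were 0 (3150 unadjusted), 0 (4536) and 890. The ratios hold no signal over background, so no limit from dim probes can be given.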
